A study of Danio rerio with 4 samples.

Results

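Cadherins are calcium-dependent adhesion proteins of the cell surface, and catenins tie their cytoplasmic tails to the actin cytoskeleton. Levels of 6 gene names of this adhesion complex were followed in ovarian follicles of zebrafish, the 2 cadherins cdh1 and cdh2 and the 4 catenins ctnnb1, ctnnb2, ctnna1 and ctnnd1. They were taken from the mRNA table by exact gene name, 6 of 29458 names in all, and their values were summed by name and also read by transcript row. The series asked which miRNAs, and which transcripts they might target, differ as follicles are activated. It held pre-vitellogenic follicles, the later stage, and primary growth follicles, the earlier stage, both sorted by size and morphology from AB strain fish aged 3 months, with no treatment given. The 4 libraries were 1 of mRNA and 1 of small RNA per stage, and nothing in the sources used here says how many fish gave a library. The titles call all 4 libraries PG, and the cell type labels were followed. With 1 library per stage no test across stages was possible, so no p-value is given and no difference has a replicate check.

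In a cadherin junction the extracellular parts of cadherins on neighbouring cells bind each other. Beta-catenin binds the tail of the cadherin, alpha-catenin links beta-catenin to actin, and p120 catenin, the product of ctnnd1, binds the tail close to the membrane and keeps the cadherin at the surface. Beta-catenin that is not held at the membrane is degraded, or acts in the nucleus in Wnt signalling. In the zebrafish embryo, maternal E-cadherin from cdh1 is needed for the cell movements of epiboly, and maternal ctnnb2 for the dorsal axis. In Drosophila, E-cadherin contact with follicle cells places the oocyte in its egg chamber.

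The mRNA table held 56711 transcript rows in FPKM, which is a level per transcript length and library size, and the number of reads behind it is unknown. Summed FPKM was 608220 in the pre-vitellogenic library and 730172 in the primary growth library. Differences are given in log2(FPKM + 1), pre-vitellogenic minus primary growth, which understates the difference of low genes. The 14480 names that reached 1 FPKM in at least 1 library were compared, and their median difference was 0.50. Both libraries held oocyte markers, 8 measured, which summed to 2886 FPKM in pre-vitellogenic and 7873 FPKM in primary growth follicles. These markers did not move together, and 7 of the 8 passed the filter. By 2-fold, 1 was higher, vasa, at 174 FPKM in pre-vitellogenic and 79.4 FPKM in primary growth follicles. Another 3 were lower by 2-fold, zp3.2, h1m and zar1, with differences of -1.81, -1.76 and -1.60. Among all names tested 29.1% were higher and 6.53% lower by 2-fold. Differences in the whole table followed transcript length, as given below. These 3 lower markers had mean lengths of 1175 to 1351 bases, and vasa 2551 bases. The remaining 3 markers reached 2-fold in neither direction. Among them the oocyte growth factor gene bmp15 was at 114 FPKM in pre-vitellogenic and 117 FPKM in primary growth follicles. Markers of granulosa and theca cells, 10 measured, summed to 21.0 FPKM in pre-vitellogenic and 2.92 FPKM in primary growth follicles, and fshr, nr5a1a and star were listed at 0 in primary growth follicles. In such bulk samples more cells of a type and more RNA per cell cannot be told apart.

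The adhesion genes did not move as one. The E-cadherin gene cdh1 was slightly lower in pre-vitellogenic than in primary growth follicles, while the other 5 names were higher there by 0.52 to 0.94. Direction depended on the scaling for cdh1, cdh2, ctnna1 and ctnnd1. With both libraries at the same FPKM total cdh1 was at 0.0145, and without mitochondrially encoded genes in that total at 0.10. With the median of their length bin subtracted cdh2, ctnna1 and ctnnd1 turned negative. So did ctnna1 and ctnnd1 with both libraries at the same 75th percentile. None of the 6 reached a 2-fold difference in log2(FPKM + 1) in either direction as deposited, that is without rescaling. Without the added 1 FPKM, the ratio of pre-vitellogenic to primary growth FPKM was 2.49 for the low gene cdh2. The other 5 names stayed short of 2-fold in that ratio too. Among all names tested, a 2-fold difference was reached upward in pre-vitellogenic follicles by 29.1% and downward by 6.53%. The median difference of the 6 names was 0.67, against 0.50 over all names tested. All 6 passed the filter at 1 FPKM, so none is missing from these counts.

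**Figure D1:**
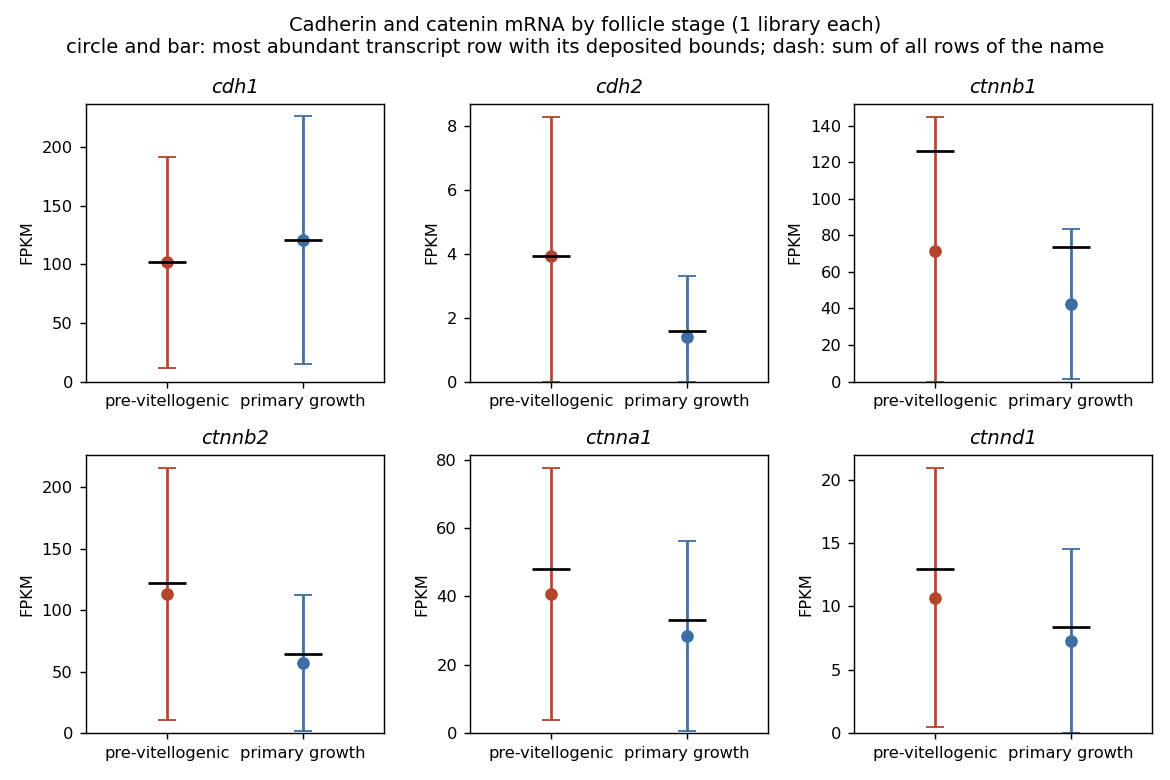
FPKM of the 6 adhesion genes in the pre-vitellogenic (left) and primary growth (right) library, 1 library each. Circles and bars are the most abundant transcript row of each gene with its deposited lower and upper bound, and black dashes are the sum of all rows of the name. The bars of both stages overlap in every panel, and cdh1 is the only gene whose sum is lower in the pre-vitellogenic library.

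The cadherins came first in this comparison. E-cadherin, encoded by cdh1 (chromosome 7, 56206925 to 56228078, forward strand, build Zv9, ENSDARG00000024371), was at 102 FPKM in pre-vitellogenic follicles, with deposited bounds of 11.8 to 191 FPKM, and at 121 FPKM in primary growth follicles, with bounds of 15.1 to 226 FPKM. It was abundant in both libraries, at rank 1110 of the 14480 names in the pre-vitellogenic library and rank 942 in the primary growth library. The difference was -0.25, and 21.8% of the names tested had a smaller one. Genes listed as markers of surface epithelium, 5 measured, summed to 738 FPKM in pre-vitellogenic and 1882 FPKM in primary growth follicles. Nearly all of that was epcam, at 682 FPKM in pre-vitellogenic and 1848 FPKM in primary growth follicles, while krt8 was at 36.3 FPKM in pre-vitellogenic and 17.0 FPKM in primary growth follicles. The keratin genes krt4 and cyt1 stayed under 1 FPKM in both libraries. Of the 5, 3 passed the filter. By 2-fold 1 was lower (epcam, beside 6.53% of all names), 1 higher (krt8, beside 29.1%) and krt18 neither. The sum thus follows epcam and does not show how much surface epithelium was present. The part of these genes in the value of cdh1 was not tested. The protein-coding cdh1 transcript of 3291 bases held all of the signal. The other cdh1 row, of 2494 bases, was listed at 0 in both libraries.

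N-cadherin, encoded by cdh2 (chromosome 20, 17786020 to 17865155, forward strand, ENSDARG00000018693), is found on neural and mesodermal cells and in mammals also on granulosa cells. It was low, at 3.92 FPKM in pre-vitellogenic and 1.57 FPKM in primary growth follicles, and its difference of 0.94 was the largest of the 6. Its rank was 10694 in the pre-vitellogenic and 11535 in the primary growth library. Of its primary growth value, 0.188 FPKM or 12.0% came from a retained-intron row of 650 bases that was listed at 0 in pre-vitellogenic follicles. The protein-coding row of 4668 bases alone had 3.92 FPKM, with bounds of 0 to 8.28 FPKM, in pre-vitellogenic follicles and 1.39 FPKM, with bounds of 0 to 3.298 FPKM, in primary growth follicles. On that row the difference was 1.05, so cdh2 passed the 2-fold mark with the most abundant row only, a setting under which 29.1% of all names were also higher by 2-fold. It also passed with a pseudocount of 0.1 FPKM, at 1.27, when 36% of all names were higher. It passed likewise without rows under 1000 bases (32% of all names higher) and with protein-coding rows only (29.6%). Granulosa and theca markers were higher in the same library, as given above, and so were markers of stroma and smooth muscle, 8 measured, which summed to 36.5 FPKM in pre-vitellogenic and 5.61 FPKM in primary growth follicles. Of the 10 granulosa and theca markers 6 passed the filter, but only inha reached 1 FPKM in primary growth follicles, at 7.31 FPKM in pre-vitellogenic and 1.25 FPKM in primary growth follicles. Of the 8 stroma markers 6 passed, and only acta2 and tagln reached 1 FPKM in primary growth follicles. The others passed through the pre-vitellogenic library alone, so their direction was set by the filter. The part of these markers in the value of cdh2 was not tested.

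Within each library cdh1 far exceeded cdh2. The ratio of cdh1 to cdh2 was 25.9 in pre-vitellogenic follicles and 76.7 in primary growth follicles. In both libraries the deposited bounds of their most abundant rows did not overlap. Over the 22 names of the table that begin with cdh and a digit, cdh1 made up 69.8% of the summed FPKM in pre-vitellogenic and 82.6% in primary growth follicles. The share of cdh2 was 2.70% in pre-vitellogenic and 1.08% in primary growth follicles, which made it the fifth of the 22 names in both. As deposited, the sum of all 22 was nearly level, at 145 FPKM in pre-vitellogenic and 146 FPKM in primary growth follicles. The 20 other names summed to 40.0 FPKM in pre-vitellogenic and 23.9 FPKM in primary growth follicles. Unlike the ratios and shares, comparisons of these sums between the stages depend on the scaling between the libraries.

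Both beta-catenin genes were higher in pre-vitellogenic follicles without reaching 2-fold. The gene ctnnb1 (chromosome 16, 7435502 to 7458987, reverse strand, ENSDARG00000014571) was at 126 FPKM in pre-vitellogenic and 73.9 FPKM in primary growth follicles, a difference of 0.77. Its paralogue ctnnb2 (chromosome 19, 49721962 to 49734841, reverse strand, ENSDARG00000023472) was at 122 FPKM in pre-vitellogenic and 64.4 FPKM in primary growth follicles, a difference of 0.92. These similar genes may share reads, so the split between them is uncertain, and their sum was 249 FPKM in pre-vitellogenic and 138 FPKM in primary growth follicles. In the pre-vitellogenic library they ranked 814 and 853, ahead of cdh1, and in the primary growth library 1556 and 1805, behind it. The place of ctnnb1 ahead of cdh1 rests on adding a short row of 772 bases. Its most abundant row alone was at 71.6 FPKM in pre-vitellogenic follicles, against 102 FPKM for cdh1.

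Which beta-catenin gene was the more abundant depended on the transcript rows counted. Of the ctnnb1 sum, 42.0% in pre-vitellogenic and 41.7% in primary growth follicles came from a 772-base row that spans only 7444084 to 7445836 of the gene. That row was at 53.1 FPKM, with bounds of 0 to 189 FPKM, in pre-vitellogenic follicles, and at 30.8 FPKM, with bounds of 0 to 111.96 FPKM, in primary growth follicles. The 3558-base row was at 71.6 FPKM, with bounds of 0 to 145 FPKM, in pre-vitellogenic and at 42.5 FPKM, with bounds of 1.21 to 83.7 FPKM, in primary growth follicles. The remaining row, a retained intron of 881 bases, was at 1.73 FPKM in pre-vitellogenic and 0.616 FPKM in primary growth follicles. For ctnnb2 the 2226-base row held 92.4% of the sum in pre-vitellogenic and 88.4% in primary growth follicles, at 113 FPKM (bounds 10.5 to 216 FPKM) in pre-vitellogenic and 56.9 FPKM (bounds 1.53 to 112.3 FPKM) in primary growth follicles. Its second row, of 2223 bases, was at 9.35 FPKM in pre-vitellogenic and 7.48 FPKM in primary growth follicles. With all rows summed, ctnnb2 was at 0.969 times ctnnb1 in pre-vitellogenic and 0.871 times in primary growth follicles. With only the most abundant row of each, it was at 1.58 times ctnnb1 in pre-vitellogenic and 1.34 times in primary growth follicles.

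**Figure D2:**
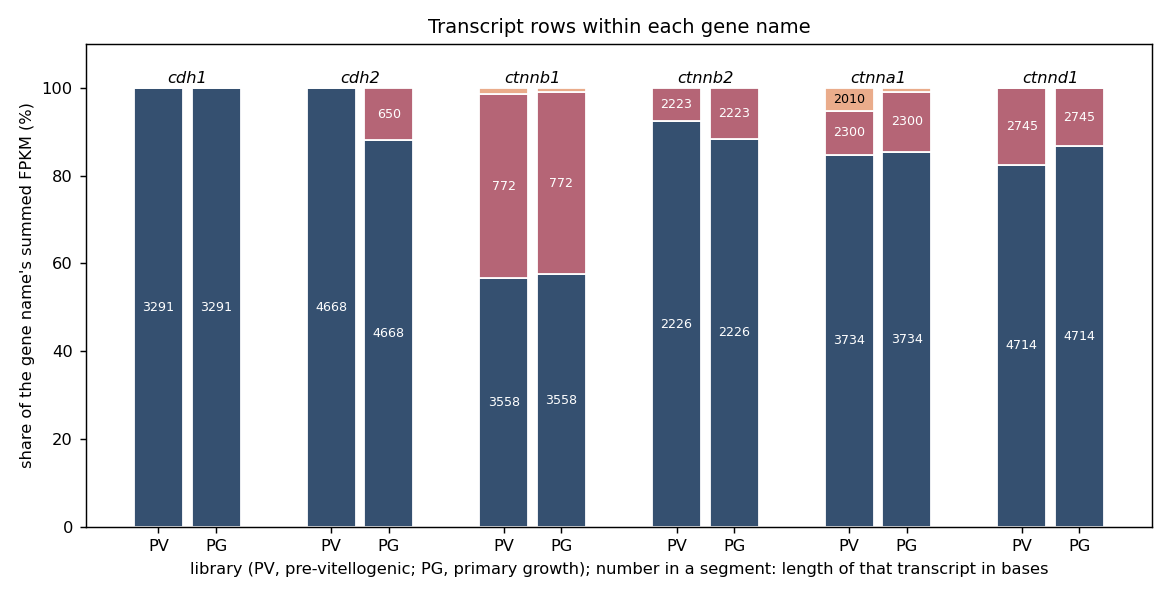
Share of each transcript row in the summed FPKM of its gene name, with the pre-vitellogenic library (PV) left of the primary growth library (PG) for each gene, and the transcript length in bases written in segments over 5%. The 772-base row of ctnnb1 makes up 42.0% of the sum in PV and 41.7% in PG, and a single row makes up at least 82.5% of the PV sum of each of the other 5 genes.

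Relative to cdh1, beta-catenin RNA was more abundant in the later stage. The summed ctnnb1 and ctnnb2 level was 2.45 times that of cdh1 in pre-vitellogenic follicles and 1.15 times in primary growth follicles. Such a ratio within a library does not change with the scaling between libraries. With the most abundant rows only the ratio was 1.82 in pre-vitellogenic and 0.824 in primary growth follicles. The 4 catenins together were at 2.94 times the 2 cadherins in pre-vitellogenic and 1.47 times in primary growth follicles. No interval can be given for these ratios, since the deposited bounds apply to single rows.

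Alpha-catenin and p120 catenin were the names closest to the median of all genes. The alpha-catenin gene ctnna1 (chromosome 24, reverse strand, ENSDARG00000077846) was at 48.0 FPKM in pre-vitellogenic and 33.2 FPKM in primary growth follicles, a difference of 0.52. Its 3 rows lie in 2 separate stretches under 1 gene ID, 35832742 to 36025382 and 36050838 to 36171912. The first stretch, a single row of 3734 bases, was at 40.6 FPKM (bounds 3.69 to 77.6 FPKM) in pre-vitellogenic and 28.4 FPKM (bounds 0.638 to 56.1 FPKM) in primary growth follicles. The second stretch summed to 7.33 FPKM in pre-vitellogenic and 4.85 FPKM in primary growth follicles. Both stretches gave nearly the same difference, 0.50 and 0.51. Within the second stretch the rows differed, since the 2010-base row was at 2.48 FPKM in pre-vitellogenic and 0.291 FPKM in primary growth follicles, while the 2300-base row was at 4.85 FPKM in pre-vitellogenic and 4.56 FPKM in primary growth follicles.

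The p120 catenin gene ctnnd1 was at 12.9 FPKM in pre-vitellogenic and 8.36 FPKM in primary growth follicles, a difference of 0.57. The name covers 2 Ensembl gene IDs on opposite strands of chromosome 1. On the reverse strand ENSDARG00000078233 (44621749 to 44654560) was at 10.7 FPKM, with bounds of 0.428 to 20.9 FPKM, in pre-vitellogenic follicles and at 7.25 FPKM, with bounds of 0.00457 to 14.5 FPKM, in primary growth follicles. On the forward strand ENSDARG00000075845 (44757228 to 44786957) was at 2.26 FPKM in pre-vitellogenic and 1.11 FPKM in primary growth follicles. The first ID thus held 82.5% of the sum in pre-vitellogenic and 86.7% in primary growth follicles, and its own difference was 0.50. A row of 2715 bases of the second ID was listed at 0 in both libraries.

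The order of the levels in pre-vitellogenic follicles was ctnnb1, ctnnb2, cdh1, ctnna1, ctnnd1 and cdh2. In primary growth follicles cdh1 stood first and the order of the others was the same. Both orders use the sum of all rows of a name. With only the most abundant row of each, ctnnb1 came behind both ctnnb2 and cdh1 in either library. Neighbours in either order of the sums had overlapping deposited bounds on their most abundant rows. Of the 15 pairs of genes, 13 overlapped in each library. Those apart were cdh1 with cdh2 and ctnnb2 with cdh2 in pre-vitellogenic follicles, and cdh1 with cdh2 and cdh1 with ctnnd1 in primary growth follicles. Between the stages, the bounds of all 15 transcript rows of the 6 names overlapped. Over the whole table, 0.0276% of the rows at 1 FPKM or more with an accepted estimate had bounds that did not overlap between the stages.

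Differences in the whole table followed transcript length, and the adhesion transcripts are long. Among protein-coding names in 10 equal bins of length, the median difference ran from -0.17 for the shortest names to 1.20 for the longest. The length of a name was the mean over its rows, weighted by FPKM. By that length the beta-catenin genes lay near the median of their bin, 0.77 for ctnnb1 and 0.92 for ctnnb2 against 0.67. For ctnnb1 the mean of 2360 bases mixes its 3558-base and 772-base rows, so its place rests on the short row. The 3558-base row alone had a difference of 0.74, while the longest bins had medians of 1.07 and 1.20. The other 4 names lay below theirs. The bin of cdh1 had a median difference of 1.07, and 4.58% of its 1375 names had a smaller difference than cdh1. In the same bin 20.6% were smaller than ctnna1. In the longest bin 16.9% were smaller than ctnnd1 and 34.5% smaller than cdh2. The part of length in these differences was not tested.

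**Figure D3:**
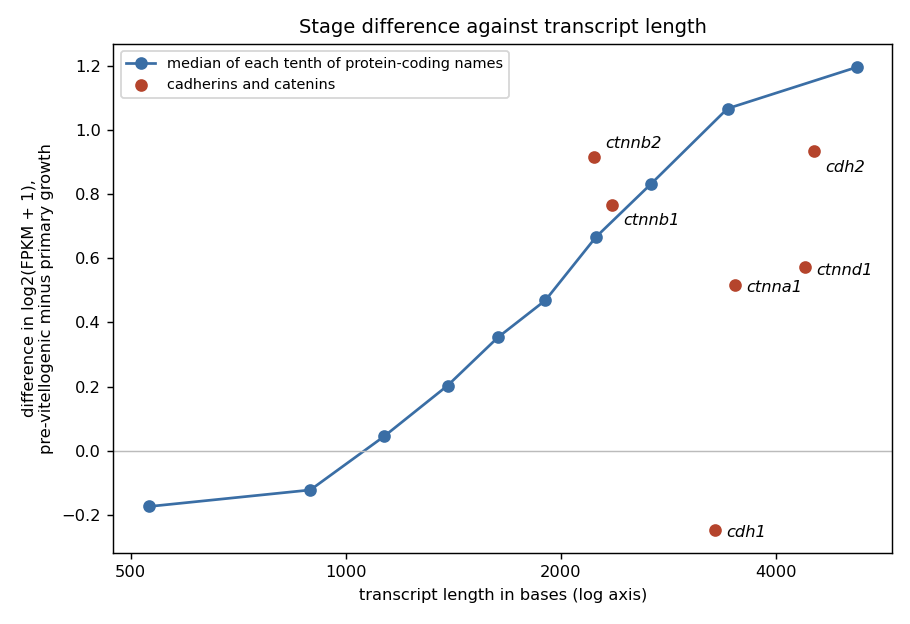
Difference in log2(FPKM + 1), pre-vitellogenic minus primary growth, against transcript length in bases on a log axis, for the 6 adhesion genes (red) and for the median of each of 10 length bins of protein-coding names (blue). Length is the mean over the rows of a name, weighted by FPKM, and for ctnnb1 it mixes a long and a short row. The bin medians climb from -0.17 to 1.20, ctnnb1 and ctnnb2 lie close to the line, and cdh1 at -0.25 lies farthest below it.

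The scaling between the libraries changed which names passed the 2-fold mark. With both libraries at the same FPKM total, 3 of the 6 names passed 2-fold upward, ctnnb2 at 1.18, cdh2 at 1.15 and ctnnb1 at 1.03, while 37.8% of all names were higher by that rule. In this setting cdh1 was level, at 0.0145. With mitochondrially encoded genes left out of the total, the same 3 names passed, beside 40.6% of all names. Centred on the median difference of names at 1 FPKM or more in both libraries, which shifts every value by 0.42, cdh1 was at -0.66 and the other names at 0.10 to 0.52. With both libraries at the same 75th percentile, cdh1 was at -0.94, ctnna1 at -0.17 and ctnnd1 at -0.069, the median of the 6 was 0.00044, and none passed 2-fold, beside 11.5% of all names higher and 17.6% lower. With the median of the length bin subtracted, cdh1 was at -1.31 and thus lower by 2-fold, as were 9.36% of all names. Under that setting cdh2, ctnna1 and ctnnd1 were also negative. As deposited and under all 12 alternatives that give a difference for each gene, cdh1 had the lowest value of the 6, and ctnnb1 and ctnnb2 stayed above 0. Most of these alternatives could hardly change the order. Centring and the total and percentile scalings shift all 6 by nearly the same amount, and the row choices left cdh1 at -0.25. With the length bin subtracted, the value of ctnnb1 rests on its averaged length.

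**Figure D4:**
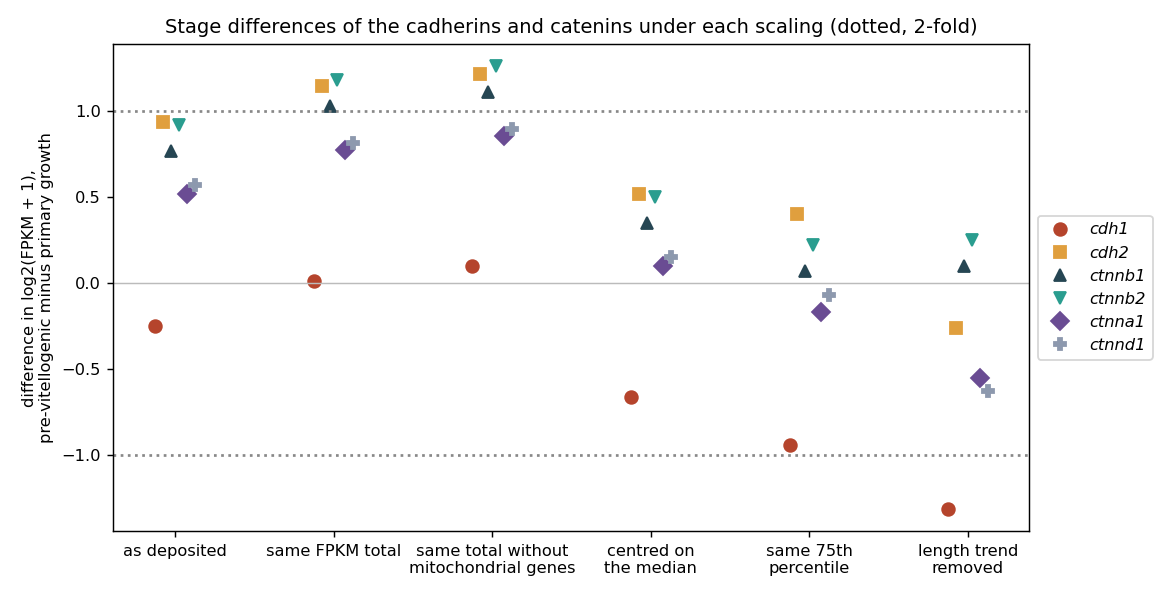
Difference in log2(FPKM + 1), pre-vitellogenic minus primary growth, of the 6 adhesion genes as deposited and under 5 scalings. Dotted lines mark a 2-fold difference. cdh1 is the lowest point in every column, from 0.10 to -1.31, and ctnnb1, ctnnb2 and cdh2 cross the upper line only in the columns set to the same FPKM total.

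Related genes were counted in 7 lists, and a list member past the filter was called at a 2-fold difference as deposited. A member may pass the filter only through the library in which it is high, so the counts are given out of all measured members too. Of 190 measured names 81 passed the filter, and of these 39 (48.1%) were higher in pre-vitellogenic follicles and none lower, beside the 29.1% and 6.53% of all names. Out of all 190 measured, the 39 were 20.5%. Without the filter 14.3% of all 29458 names were higher and 3.21% lower. With the median of the length bin subtracted, 10 of the 81 were higher, or 12.3%, beside 12.1% of all names. In that setting 1 was lower, or 1.23%, beside 9.36% of all names. At the same 75th percentile 15 of 76 were higher, or 19.7%, beside 11.5% of all names, and 3 lower, or 3.95%, beside 17.6%.

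Of the 20 other cadherins 10 passed the filter. With the median of the length bin subtracted 2 were at least 2-fold higher, beside 12.1% of all names. At the same 75th percentile 2 were, beside 11.5%. As deposited 5 of the 10 were, beside 29.1%. These were CDH8 (3.16 FPKM in pre-vitellogenic, 0.131 FPKM in primary growth follicles), CDH12 (1 of 2) (2.75 FPKM in pre-vitellogenic, 0.0600 FPKM in primary growth follicles), cdh4 or R-cadherin (3.15 FPKM in pre-vitellogenic, 0.534 FPKM in primary growth follicles), cdh23 and cdh11. In pre-vitellogenic follicles cdh23 was at 1.79 FPKM and cdh11 at 2.30 FPKM, and in primary growth follicles at 0.198 and 0.417 FPKM. All 5 were under 1 FPKM in primary growth follicles. They passed through the pre-vitellogenic library alone, so their direction was set by the filter. The highest level summed over both libraries was that of CDH18 (2 of 2), at 6.70 FPKM in pre-vitellogenic and 8.60 FPKM in primary growth follicles. The endothelial cadherin gene cdh5 was at 1.57 FPKM in pre-vitellogenic and 0.775 FPKM in primary growth follicles. Over all 20 measured names the median difference was 0.20. Of 76 protocadherin names 3 passed the filter, and as deposited 2 were higher, beside 29.1% of all names. They were PCDH11Y (7.98 FPKM in pre-vitellogenic, 2.26 FPKM in primary growth follicles) and pcdh15b. With the median of the length bin subtracted or at the same 75th percentile 0 were higher.

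Among 13 other catenins and plakophilins, relatives of alpha-catenin, beta-catenin or p120 catenin, 8 passed the filter. Of these, 5 (62.5%) were higher, beside 29.1% of all names tested. Of the 5, ctnnd2a and pkp3a were under 1 FPKM in primary growth follicles, at 0.301 and 0.651 FPKM. They passed through the pre-vitellogenic library alone, so their direction was set by the filter. With the median of the length bin subtracted 1 was higher, beside 12.1% of all names. At the same 75th percentile 2 were, beside 11.5%. Plakoglobin from jupa, a close relative of beta-catenin that also binds cadherin tails, had the highest level summed over both libraries, at 31.5 FPKM in pre-vitellogenic and 9.29 FPKM in primary growth follicles, a difference of 1.66. Its level was 0.127 times the summed beta-catenin level in pre-vitellogenic and 0.0672 times in primary growth follicles. The alpha-catenin relative ctnnal1 had the largest difference, 2.41, at 11.4 FPKM in pre-vitellogenic and 1.34 FPKM in primary growth follicles. The plakophilin gene pkp4 was at 12.7 FPKM in pre-vitellogenic and 3.19 FPKM in primary growth follicles, and ctnnd2a at 2.58 FPKM in pre-vitellogenic and 0.301 FPKM in primary growth follicles. The second alpha-catenin gene, ctnna2, was at 23.2 FPKM in pre-vitellogenic and 13.5 FPKM in primary growth follicles, short of 2-fold at 0.73. That left ctnna1 at 2.07 times ctnna2 in pre-vitellogenic and 2.46 times in primary growth follicles.

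Of 24 measured partners of the junction 17 passed the filter and 7 (41.2%) were higher, beside 29.1% of all names tested. With the median of the length bin subtracted 1 was higher and 1 lower, beside 12.1% and 9.36% of all names. At the same 75th percentile 3 were higher, beside 11.5%. The vinculin gene vcla, whose product binds alpha-catenin under tension, was at 9.04 FPKM in pre-vitellogenic and 1.71 FPKM in primary growth follicles. The scaffold gene iqgap1 was at 38.0 FPKM in pre-vitellogenic and 9.98 FPKM in primary growth follicles, and the ZO-1 gene tjp1a at 12.7 FPKM in pre-vitellogenic and 2.91 FPKM in primary growth follicles. The nectin gene pvrl1b, which encodes another adhesion receptor of these junctions, was at 14.5 FPKM in pre-vitellogenic and 4.38 FPKM in primary growth follicles. The small GTPase gene rac1a was the most abundant and level, at 321 FPKM in pre-vitellogenic and 325 FPKM in primary growth follicles.

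The list for turnover of cadherins and signalling at them had 16 of 19 names past the filter. Of these, 10 (62.5%) were higher, beside 29.1% of all names tested. With the median of the length bin subtracted 2 were, beside 12.1% of all names. At the same 75th percentile 2 were, beside 11.5%. Of the 10, PTPRM and ptprfb were at 0 and 0.455 FPKM in primary growth follicles. They passed through the pre-vitellogenic library alone, so their direction was set by the filter. The endocytic adaptor gene numb was at 6.62 FPKM in pre-vitellogenic and 1.501 FPKM in primary growth follicles, and the phosphatase gene ptpn1, with the highest level summed over both libraries, at 84.4 FPKM in pre-vitellogenic and 31.4 FPKM in primary growth follicles. The gene cbll1, which encodes the E-cadherin ubiquitin ligase Hakai, went the other way without reaching 2-fold, at 6.41 FPKM in pre-vitellogenic and 10.6 FPKM in primary growth follicles. It was named after its value was seen.

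Of 24 names for beta-catenin turnover and its nuclear partners 19 passed the filter. Of these, 5 were higher, or 26.3%, which is below the 29.1% of all names tested. They were the destruction complex genes apc (31.9 FPKM in pre-vitellogenic, 6.301 FPKM in primary growth follicles), axin2 (25.0 FPKM in pre-vitellogenic, 7.04 FPKM in primary growth follicles) and axin1, and the nuclear partner genes lef1 (44.4 FPKM in pre-vitellogenic, 19.5 FPKM in primary growth follicles) and bcl9l. The apc value rests on transcripts with a mean length of 9187 bases. Since bcl9l, at 0.846 FPKM in primary growth follicles, passed through the pre-vitellogenic library alone, its direction was set by the filter. The ligase subunit gene fbxw11b was the most abundant, at 97.7 FPKM in pre-vitellogenic and 67.2 FPKM in primary growth follicles. None of the 5 was higher by 2-fold with the median of the length bin subtracted, beside 12.1% of all names. At the same 75th percentile 2 names of the list were, beside 11.5%.

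Repressors of cadherin genes, known as such in mammals, had 8 of 14 names past the filter. Of these, 5 (62.5%) were higher, beside 29.1% of all names tested. With the median of the length bin subtracted 4 were, beside 12.1% of all names. At the same 75th percentile 4 were, beside 11.5%. The list comprised the snai, zeb, twist and tcf3 genes. The E2A genes tcf3a (26.0 FPKM in pre-vitellogenic, 4.17 FPKM in primary growth follicles) and tcf3b (10.5 FPKM in pre-vitellogenic, 1.33 FPKM in primary growth follicles) had the largest differences, 2.38 and 2.31. The gene zeb2a was at 3.76 FPKM in pre-vitellogenic and 0.0254 FPKM in primary growth follicles, snai2 at 13.3 FPKM in pre-vitellogenic and 3.34 FPKM in primary growth follicles, and snai1a, with the highest level summed over both libraries, at 37.4 FPKM in pre-vitellogenic and 15.4 FPKM in primary growth follicles. Named after its value was seen, snai3 was the most abundant of the list in primary growth follicles and did not reach 2-fold, at 21.2 FPKM in pre-vitellogenic and 31.0 FPKM in primary growth follicles. Over all 14 measured names the median difference was 0.26. Since zeb2a passed through the pre-vitellogenic library alone, its direction was set by the filter.

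**Figure D5:**
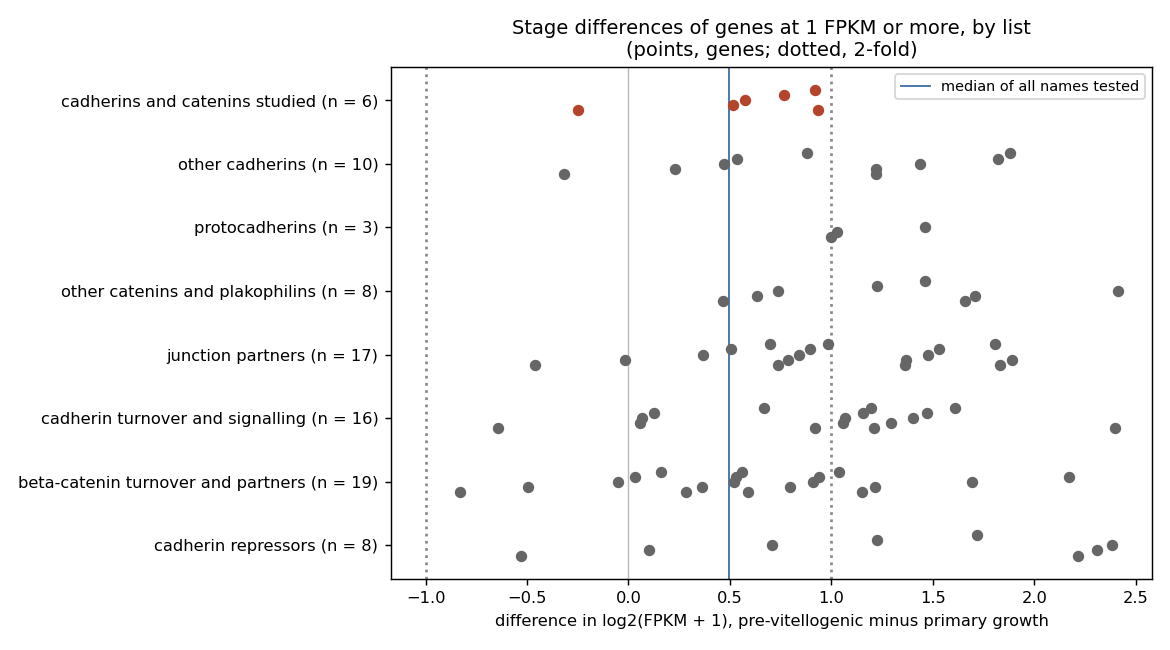
Difference in log2(FPKM + 1), pre-vitellogenic minus primary growth, of genes past the filter at 1 FPKM, for the 6 adhesion genes (red) and 7 related lists (grey). The blue line is the median of all names tested at 0.50, and dotted lines mark a 2-fold difference. Points of the adhesion genes all lie between the dotted lines. Of the 81 genes of the other lists, 39 lie beyond the upper one and none beyond the lower one, beside 29.1% and 6.53% of all names. With the median of the length bin subtracted, 12.3% of the 81 were higher by 2-fold, beside 12.1% of all names.

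The small RNA table held 4 mature miRNAs of the families listed for their link to E-cadherin, and their sequences are shown with the seed marked. In mammals the miR-200 family, which includes miR-141 and miR-429, represses the ZEB repressors of E-cadherin, and miR-9 targets the mRNA of human CDH1. Capitals mark the seed, bases 2 to 8, with T for U as in the table.
dre-mir-141-3p: tAACACTGtctggtaacgatgc
dre-mir-429a: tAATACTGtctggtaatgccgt
dre-mir-200a-5p: cATCTTACcggacagtgctgga
dre-mir-9-5p: tCTTTGGTtatctagctgtatga
The seeds of miR-141 and miR-429a both end in ACTG and are not identical, and the 5p arm of miR-200a has a seed of its own. Abundance of miR-9-5p was 266 RPM in pre-vitellogenic and 179 RPM in primary growth follicles, a ratio of 1.49. The others were scarce, with miR-141-3p at 8.30 RPM in pre-vitellogenic and 1.67 RPM in primary growth follicles, and miR-429a at 4.62 RPM in pre-vitellogenic and 1.75 RPM in primary growth follicles. The 5p arm of miR-200a was at 10.2 RPM in pre-vitellogenic follicles and listed at 0 in primary growth follicles. Among 118 listed miRNAs, 103 were higher in the pre-vitellogenic library. The median ratio of those above 0 in both was 6.24, and miR-9-5p, miR-141-3p and miR-429a lay below that median ratio. Only 27 of the 118 reached 100 RPM in at least 1 library. In log2(RPM + 10) the median difference of all 118 was 0.650. On that scale miR-141-3p was at 0.648, miR-9-5p at 0.548, miR-429a at 0.315 and miR-200a-5p at 1.02. Target sites in cdh1 were not examined.

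Over the 2 mRNA libraries, the names with the closest pair of levels to each adhesion gene were found by Euclidean distance in log2(FPKM + 1). They were wdr46 and UQCC2 for cdh1 (distances 0.03 and 0.03), slc23a2 and AKNAD1 for cdh2, cnppd1 and cebpg for ctnnb1, cdc27 and CDCP1 (2 of 3) for ctnnb2, tbl1xr1b and st13 for ctnna1, and sirt3 and MBLAC1 for ctnnd1. All distances were 0.02 to 0.07, and with 2 libraries many genes share such a pattern. None of the 6 adhesion genes was among the nearest names of another.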

How the data were processed

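The authors deposited mRNA values as FPKM per transcript, each with a status and a lower and upper bound; the read depth behind them is unknown. TopHat2 2.0.11, Cufflinks 2.2.1 and build Zv9 appear, with no role or order, in the submitters' processing notes. The use of strand in counting is not stated. In the small RNA table, whose header says RPKM, the deposited values rise in steps that do not depend on miRNA length, so they were read as RPM. PG and PV columns were assigned by the cell type labels.

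FPKM was added over rows that share a gene name, and 779 gene IDs without a name were kept by ID. Gene coordinates are those of the table. Names of lists were matched by symbol or by Ensembl ID. The pseudocount was 1 FPKM, the filter 1 FPKM in the higher library and the call a 2-fold difference, with Python 3.11.15, pandas 2.3.3 and numpy 2.4.6. The 10 rows marked as failed, all in the primary growth library, did not include an adhesion gene. Fold calls and the length correction were run on simulated data, only to check that the code works. The simulation used names at 5 FPKM or more, with planted changes well past 2-fold and a planted length slope. It does not cover low genes such as cdh2, differences near 2-fold or variation between libraries.

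The adhesion genes and the lists were chosen with earlier results of these data known. Named were all 6 adhesion genes, up to 4 called genes per list and direction with the largest differences, the gene of each list with the highest level summed over both libraries and the 2 nearest names per gene; genes named beyond that rule (cdh5, cdh11, ctnna2, axin1, cbll1, snai3, fshr, star and bmp15) were chosen after their values were seen. Of the genes the rule picks in the list for cadherin turnover, 2 are not reported here. The alternatives were other pseudocounts, filters, scalings and choices of transcript rows. Row choices by length and biotype were added after the data were seen.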

Additional observations from a re-analysis of the deposited data

How the results depend on the processing

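With 1 library per stage and no read depth, no replicate could be left out, and no alternative carries a test. No paired analysis was possible because each stage had 1 library. A value was called moved when it crossed the 2-fold mark, changed sign or changed by more than 1.5 times. Rescaling to the same FPKM total put cdh1, cdh2, ctnnb1 and ctnnb2 at 0.0145, 1.15, 1.03 and 1.18, with 3 names higher; without mitochondrially encoded genes they were at 0.10, 1.22, 1.11 and 1.26, again with 3 higher and a median of 1.00. At the same 75th percentile cdh1, ctnnb1, ctnnb2, ctnna1 and ctnnd1 were at -0.94, 0.069, 0.22, -0.17 and -0.069, with a median of 0.00044. With the length trend removed cdh1, cdh2, ctnnb1, ctnnb2, ctnna1 and ctnnd1 were at -1.31, -0.26, 0.10, 0.25, -0.55 and -0.63, with 1 name lower and a median of -0.41. The gene cdh2 was at 1.27 with a pseudocount of 0.1 FPKM and at 1.05 with the most abundant row only, without rows under 1000 bases or with protein-coding rows only, and was then the 1 name higher. The log2 ratio of ctnnb2 to ctnnb1, -0.05 in pre-vitellogenic and -0.20 in primary growth follicles, turned to 0.66 and 0.42 with the most abundant row only, and to 0.77 and 0.60 without rows under 1000 bases.

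Counts of list members at least 2-fold higher moved as follows. With a pseudocount of 5 FPKM the other catenins had 3, cadherin turnover 4, beta-catenin turnover 3, other cadherins 0 and protocadherins 0. A filter at 5 FPKM, which 55 list members passed, left 3 other catenins and 0 other cadherins. Centring left 3 in cadherin turnover, 2 in beta-catenin turnover, 3 other cadherins and 1 protocadherin. The same FPKM total gave 12 junction partners and 8 in beta-catenin turnover, and without mitochondrially encoded genes 14 and 8. The same 75th percentile gave 2 other catenins, 3 junction partners, 2 in cadherin turnover, 2 in beta-catenin turnover, 2 other cadherins and 0 protocadherins. Without the length trend these 6 lists had 1, 1, 2, 0, 2 and 0. The most abundant row only gave 6 in cadherin turnover, 3 other cadherins and 1 protocadherin, and leaving out rows under 1000 bases 1 protocadherin. The cadherin repressors kept within 1.5 times of 5 throughout. Leaving out failed rows or summing by gene ID moved none of these counts by over 1.5 times. The share of all names past the upper 2-fold mark, 29.1% as deposited, moved too. It was 13.5% with a pseudocount of 5 FPKM, 15.2% when centred and 30.6% with a filter at 5 FPKM. It was 37.8% at the same FPKM total and 40.6% without mitochondrially encoded genes. The same 75th percentile gave 11.5% and removing the length trend 12.1%. The most abundant row only gave 29.1%, and leaving out rows under 1000 bases 32%. How far list counts moved beyond this share was not tested. Beyond the construction of each setting, the causes of these changes were not tested.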
